A study of Mus musculus with 4 samples.

Results

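The MHC class II presentation genes are 10 genes of the pathway that shows peptides from engulfed material to helper T cells, taken by name from a table of 15255 genes. They are the class II chain genes H2-Aa, H2-Ab1 and H2-Eb1, the invariant chain gene Cd74, the transactivator gene Ciita, the peptide-loading genes H2-DMa, H2-DMb1 and H2-DMb2, and the genes of the loading modulator, H2-Oa and H2-Ob. All 10 were in the table. They were measured by poly(A) RNA-seq in LSK cells, bone marrow cells that lack lineage markers and carry Sca-1 and c-Kit, the fraction that holds haematopoietic stem and early progenitor cells. There were 2 libraries from Afg3l2 WT cells and 2 from Afg3l2 KO cells, separated fresh and washed in PBS, with no drug named. Afg3l2 encodes a subunit of an inner-membrane protease of mitochondria. The labels give no strain, age or sex, do not say how the gene was removed or in which cells, and do not say whether the libraries came from separate or pooled mice. What the p-values measure is thus the spread among these 4 libraries alone.

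Class II molecules are pairs of an alpha and a beta chain that the invariant chain escorts from the endoplasmic reticulum to endosomes. There the H2-DM dimer removes the last piece of invariant chain and lets peptides bind, and the H2-DO dimer restrains H2-DM. Ciita does not bind DNA itself; it is recruited to class II promoters by factors that sit on short elements called the X box and the Y box, and it is needed for transcription of the class II chains. In bone marrow these genes are known mostly from dendritic cells, B cells and macrophages.

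RefSeq promoter windows on GRCm38.p6 were matched for 7 of the 10 genes, as 8 windows. The stretches shown here end where the transcribed part begins and are read 5′ to 3′ on the gene's strand. They come from both chain genes with a window, H2-Eb1 (called) and H2-Aa (not called), and from H2-Ob, also not called. Capitals mark matches to the Y box letters TGATTGG and the X box letters ANNAACNNATG. Both were settled on after these windows had been read, and the X box letters are the bases that 4 of the genes share upstream of their Y box, so their own matches follow from the choice.
H2-Aa (chr17:34287824-34287933, minus strand): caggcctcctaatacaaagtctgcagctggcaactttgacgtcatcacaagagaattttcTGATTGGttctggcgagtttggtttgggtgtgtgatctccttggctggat
H2-Eb1 (chr17:34305757-34305866, plus strand): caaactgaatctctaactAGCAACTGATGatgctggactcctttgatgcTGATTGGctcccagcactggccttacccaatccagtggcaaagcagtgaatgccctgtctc
H2-Ob (chr17:34238795-34238902, plus strand): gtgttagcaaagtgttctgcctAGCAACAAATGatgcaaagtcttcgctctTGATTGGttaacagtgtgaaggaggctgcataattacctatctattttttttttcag

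Within 250 bases before the start, on either strand, the Y box letters were present for H2-Aa, H2-Eb1, H2-DMb1, H2-DMb2, H2-Oa and H2-Ob, and the X box letters for H2-Eb1, H2-DMb1, H2-DMb2 and H2-Ob. The Y box letters and the X box letters did not overlap in any of these windows. Among all 32851 promoter windows of the same length, 7.23% held the Y box letters, 2.33% the X box letters and 0.204%, or 67 windows, held both. These 67 included H2-Eb1, H2-DMb1, H2-DMb2 and H2-Ob, whose windows gave the X box letters and so had to match. The neighbouring class II gene H2-Eb2 was also among the 67. Neither set of letters was found in the windows of H2-DMa, and the X box letters were not found for H2-Aa or H2-Oa. A missing match says only that these letters are not there, not that the gene lacks the element. Matches were present both for H2-Eb1, which was called higher in the knockout, and for genes that were not called.

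Reads assigned to genes numbered 16522338 to 17271936 per library, and levels are given in CPM as the authors scaled them, reads relative to the size of each library. Afg3l2 itself stood at 79.6 and 86.0 CPM in wild-type and at 36.7 and 30.1 CPM in the knockout (replicates 1 and 2), and fell (log2 fold change -1.29 ± 0.16 SE, limma adjusted p = 0.0115; 0.0551 without knockout replicate 1 and 0.161 without knockout replicate 2). Xist, the RNA of the inactive X chromosome, was at 889 and 1004 CPM in the replicates numbered 2 and at 0.113 and 15.7 CPM in those numbered 1, so the replicate number coincided with sex-linked RNA in both groups. The stem and progenitor markers Kit and Ly6a (Sca-1), which define the sort, had reads in every library, at 223 to 341 and 57.1 to 95.4 CPM. Genes of lineage-positive cells were present too, such as the B cell gene Cd79a at 15.8 to 137 CPM.

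The class II chain genes H2-Aa, H2-Ab1 and H2-Eb1 were higher in both knockout libraries than in both wild-type libraries. The same held for 27.2% of all genes. A gene was called when limma gave it an adjusted p (Benjamini-Hochberg, 15255 genes) below 0.05. Of the 10 genes, H2-Ab1 and H2-Eb1 rose, against 1.58% of all genes called higher, and 0 fell, against 0.839% called lower and 2.42% called either way. At an unadjusted limma p under 0.05 there were 7 of the 10, against 20.8% of all genes. EdgeR called 1, H2-Eb1, against 1.88% of all genes, and limma-voom called the same gene, against 1.66%. H2-Aa, Cd74 and Ciita were 3.21 to 4.46 times as high on average without passing the test, while the other 5 genes had ratios between 0.646 and 1.31. The median log2 fold change was 1.08 over the 10 genes and -0.02 over all genes tested.

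H2-Ab1, the beta chain of the I-A molecule (ENSMUSG00000073421, chr17:34257689-34269419 on GRCm38), stood at 151 and 285 CPM in wild-type and at 801 and 799 CPM in the knockout (replicates 1 and 2, the order used throughout). Its groups did not overlap, and the wild-type libraries lay further apart than the knockout libraries. The means were 218 ± 94.8 and 800.3 ± 1.12 CPM (SD, n = 2 each), a ratio of 3.67 and a log2 fold change of 1.94 ± 0.30 (SE, limma adjusted p = 0.0441). With edgeR on reads recovered from the CPM values the call was lost (adjusted p = 0.0531).

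H2-Eb1, the beta chain of I-E (ENSMUSG00000060586, chr17:34305867-34316674), stood at 92.2 and 179 CPM in wild-type and at 606 and 637 CPM in knockout replicates. Its lowest knockout library was above its highest wild-type library. The ratio of the means, 135 ± 61.0 and 622 ± 22.2 CPM, was 4.59, with a log2 fold change of 2.27 ± 0.32 (SE, limma adjusted p = 0.0385). EdgeR gave an adjusted p = 0.0435. An antisense gene, Gm20513, overlaps it on the opposite strand without sharing an exon base.

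H2-Aa, the alpha chain that pairs with H2-Ab1, stood at 83.3 and 169.8 CPM in wild-type and at 455 and 491 CPM in knockout replicates. As for the beta chains, wild-type replicate 1 was lowest and the groups did not overlap. Its log2 fold change of 1.98 ± 0.35 (SE) did not pass (limma adjusted p = 0.0699).

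Cd74, whose product is the invariant chain and which lies on chromosome 18, stood at 276 and 568 CPM in wild-type and at 1285 and 1422 CPM in knockout replicates. Its groups did not overlap. The log2 fold change was 1.77 ± 0.36 (SE) and the limma adjusted p = 0.0885. Summed, the chains and Cd74 made up 0.0619% and 0.117% of a wild-type library's reads and 0.313% and 0.336% of a knockout library's.

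Ciita, the transactivator (chromosome 16), was the gene of the 10 with the fewest reads in wild-type replicate 1, where it had 97. It stood at 5.49 and 17.5 CPM in wild-type and at 49.0 and 53.6 CPM in knockout replicates. Its lowest knockout value was above the highest wild-type value, and wild-type replicate 2 held 3.19 times the level of replicate 1. Its log2 fold change of 2.25 ± 0.53 (SE) did not pass (limma adjusted p = 0.124). Of its exon bases 3.45% are shared with Dexi on the opposite strand, and whether reads kept their strand is not given in the sources used here.

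**Figure D1:**
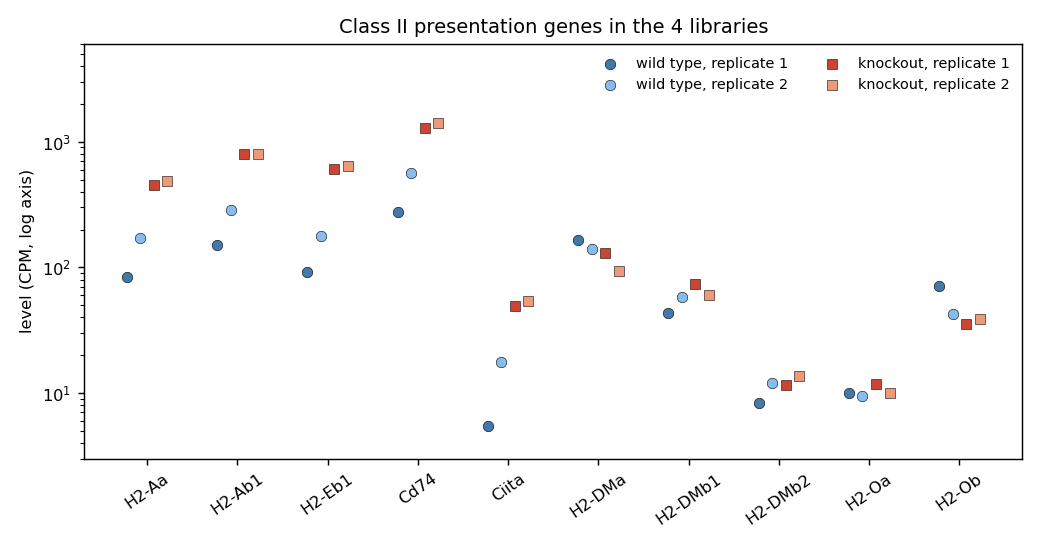
Level of each of the 10 class II presentation genes in CPM (log axis) in the 2 wild-type libraries (circles) and the 2 knockout libraries (squares). For H2-Aa, H2-Ab1, H2-Eb1, Cd74 and Ciita both knockout libraries lie above both wild-type libraries, and wild-type replicate 1 is the lowest; the other 5 genes lie within a narrower range.

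None of the peptide-loading genes was called in the main fit, and whether their change differed from that of the chains was not tested. With the replicate number as a block, H2-DMa was called lower (adjusted p = 0.0487 by limma and 0.0438 by edgeR). H2-DMa, the alpha chain of H2-DM, stood at 164 and 140.0 CPM in wild-type and at 130.2 and 94.3 CPM in knockout replicates. Both knockout values were below both wild-type values, at 0.795 times within number 1 and 0.674 times within number 2, with a log2 fold change of -0.45 ± 0.18 (SE) that did not pass (limma adjusted p = 0.226). Of its exon bases 10.4% are shared with Brd2 on the opposite strand, and 4.85% of its 150-base windows, the read length, occur in Brd2 transcripts.

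H2-DMb1, a beta chain of H2-DM, stood at 43.4 and 58.4 CPM in wild-type and at 73.5 and 59.8 CPM in knockout replicates (log2 fold change 0.39 ± 0.19 SE, limma adjusted p = 0.293). Knockout replicate 2 was close to wild-type replicate 2, at 1.02 times its level. H2-DMb2, the other beta chain gene of H2-DM, was at 8.26 and 12.04 CPM in wild-type and at 11.5 and 13.6 CPM in knockout replicates, so its groups overlapped (log2 fold change 0.30 ± 0.28 SE, adjusted p = 0.581). The beta chain genes shared 72 windows of 150 bases, 4.71% of those of H2-DMb1 and 4.14% of those of H2-DMb2, so a small part of their reads could be split between them.

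The genes of H2-DO also stayed below the threshold. H2-Ob, its beta chain, stood at 71.5 and 42.9 CPM in wild-type and at 35.3 and 38.6 CPM in knockout replicates (log2 fold change -0.57 ± 0.24 SE, limma adjusted p = 0.238). The wild-type libraries differed more from each other than wild-type replicate 2 did from either knockout library. H2-Oa, its alpha chain, was at 10.07 and 9.37 CPM in wild-type and at 11.8 and 10.08 CPM in knockout replicates (log2 fold change 0.15 ± 0.25 SE, adjusted p = 0.770); 22.8% of its exon bases are shared with BC051537 on the opposite strand. For these 5 genes a p above the threshold does not show that the groups were alike.

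**Figure D2:**
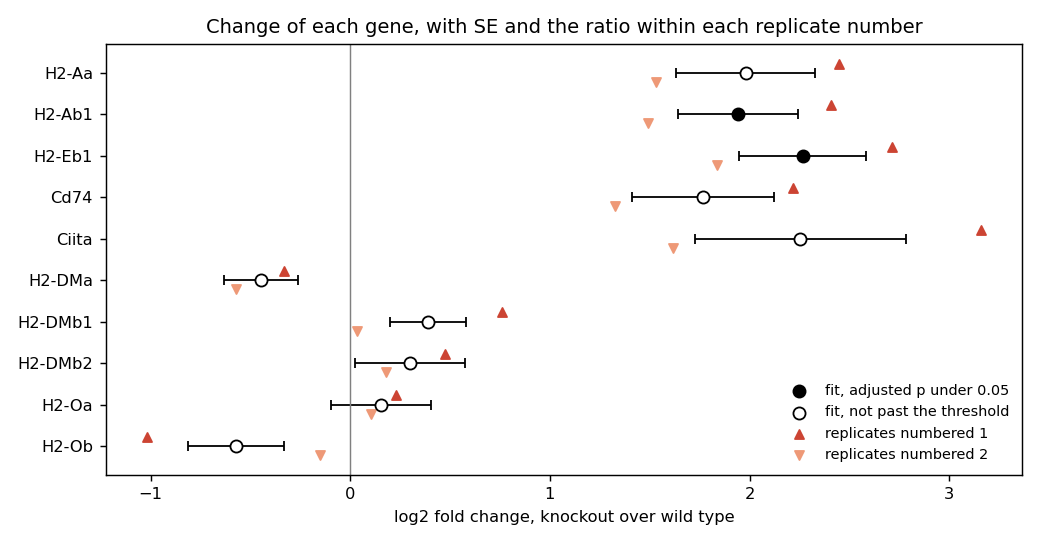
Log2 fold change of each gene, knockout over wild type, from the limma fit (circles, bars are SE; filled where the adjusted p was under 0.05), with the log2 ratio of the libraries numbered 1 (upward triangles) and numbered 2 (downward triangles). H2-Ab1 and H2-Eb1 are filled, and for the 5 genes at the top the ratio between libraries numbered 1 is larger than that between libraries numbered 2.

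Because the replicate number coincided with sex-linked RNA, the ratio was also taken within each number. The deposited data also carry the word paired in their name, without saying what a number shares, and the main fit had no replicate block. H2-Ab1 was 5.31 times as high in knockout as in wild-type replicate 1 and 2.81 times as high in replicate 2. H2-Eb1 was 6.57 and 3.57 times as high, and H2-Aa 5.46 and 2.89 times. Cd74 was 4.65 and 2.50 times as high and Ciita 8.93 and 3.06 times. All 5 were thus higher in the knockout within both numbers, and by more within number 1. The difference between the numbers came with the wild-type side: for the chains and Cd74 wild-type replicate 2 was 1.89 to 2.05 times replicate 1, while knockout replicate 2 was 0.998 to 1.11 times replicate 1. A ratio of at least 1.5 between wild-type replicates 2 and 1 was seen in 13.2% of all genes.

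Groups did not overlap, with the knockout higher, for 7 of the 10 genes (27.2% of all genes) and, with the knockout lower, for 2 (26.9% of all genes). In the authors' deposited table, H2-Aa, H2-Ab1, H2-Eb1, Cd74 and Ciita had an FDR under 0.05 and were higher, against 6.04% of all genes. The authors' deposited table gave H2-Eb1 a log2 fold change of 2.27 (FDR 3.68e-11) and Ciita one of 2.38 (FDR 0.000587). For H2-DMa and H2-Ob the authors' deposited table gave an FDR of 0.0907 and 0.158.

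The calls depended on single libraries. Without wild-type replicate 1 limma called 5 of the 10 genes, against 4.3% of all genes, and without wild-type replicate 2 it called 6, against 7.0%. Of these 6 all were higher but H2-Ob, which was called lower (limma adjusted p = 0.0180). With 1 library left in a group, that library is assumed to vary like those of the other group, so the gained calls rest on the close agreement of the knockout libraries. Without knockout replicate 1 or knockout replicate 2 it called 0, with adjusted p-values for H2-Eb1 of 0.153 and 0.334. The unadjusted limma p was then below 0.05 for 6 and for 5 of the 10 genes. In these 4 fits the log2 fold change of H2-Eb1 stayed between 1.79 and 2.74 and that of H2-Ab1 between 1.49 and 2.40. Over all genes limma called 64 (0.42%) without knockout replicate 1, with 2606 at an unadjusted p under 0.05, and 0 (0.0%) without knockout replicate 2, with 1209. Of the 12 genes of the other gene lists that limma called with all libraries, 1 (Clec10a) was still called without knockout replicate 1 and 0 without knockout replicate 2.

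Levels were set side by side per kilobase of exon, with exon lengths from GENCODE M21. The length counted every base in any annotated exon of a gene, 3798 for H2-Aa, 2568 for H2-Ab1 and 1944 for H2-Eb1. The order of the genes thus depends on the annotation as well as on the reads. In wild-type cells Cd74 was highest, at 251 ± 123 CPM per kb (SD, n = 2), followed by H2-Ab1 at 84.8, H2-Eb1 at 69.6, H2-DMa at 44.0, H2-Aa at 33.3 and H2-DMb1 at 30.3 CPM per kb. From H2-Ab1 to H2-DMb1 each gene's libraries overlapped with those of the next. H2-Ob, H2-Oa and H2-DMb2 lay at 10.6, 6.91 and 5.81 CPM per kb, of which the last 2 overlapped, and Ciita was lowest at 1.21 CPM per kb.

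In knockout cells the level per kb of Cd74 was 806, and H2-Eb1 and H2-Ab1, at 320 and 312 CPM per kb, overlapped. H2-Aa followed at 125 CPM per kb and no longer overlapped with H2-DMb1, at 39.6, or H2-DMa, at 32.6 CPM per kb. H2-Oa, H2-DMb2 and H2-Ob overlapped in turn at 7.78, 7.18 and 6.87 CPM per kb, and Ciita was at 5.38 CPM per kb.

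Within a library, H2-Ab1 had 1.81 and 1.68 times the CPM of H2-Aa in wild-type and 1.76 and 1.63 times in knockout replicates. Cd74 had 1.83 and 1.99 times the CPM of H2-Ab1 in wild-type and 1.60 and 1.78 times in knockout replicates. H2-Eb1 had 1.11 and 1.05 times the CPM of H2-Aa in wild-type and 1.33 and 1.30 times in knockout replicates, so this ratio was higher in both knockout libraries. The ratio of H2-DMa to H2-Ab1 was 1.09 and 0.492 in wild-type and 0.163 and 0.118 in knockout replicates. The ratio of H2-Ob to H2-Ab1 was 0.474 and 0.151 in wild-type and 0.0441 and 0.0482 in knockout replicates. These ratios are descriptions and were not tested.

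Of the 10 genes 8 lie in the class II region of chromosome 17, a stretch of 249 kb from H2-Oa to H2-Eb2 on GRCm38 in which 15 genes were measured. The called genes and H2-Aa are neighbours at one side of it. The next gene beyond them, H2-Eb2, a class II beta chain-like gene, was at 1.87 and 1.36 CPM in wild-type and at 1.60 and 4.83 CPM in knockout replicates; it was not called (limma adjusted p = 0.484). Tap1, a subunit of the peptide pump of class I presentation, was at 270.0 and 275 CPM in wild-type and at 426 and 399 CPM in knockout replicates (log2 fold change 0.59 ± 0.13 SE, adjusted p = 0.0636). The proteasome genes Psmb8 and Psmb9, which lie between H2-DMb1 and H2-Ob as Tap1 does, had log2 fold changes of -0.22 and 0.02.

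**Figure D3:**
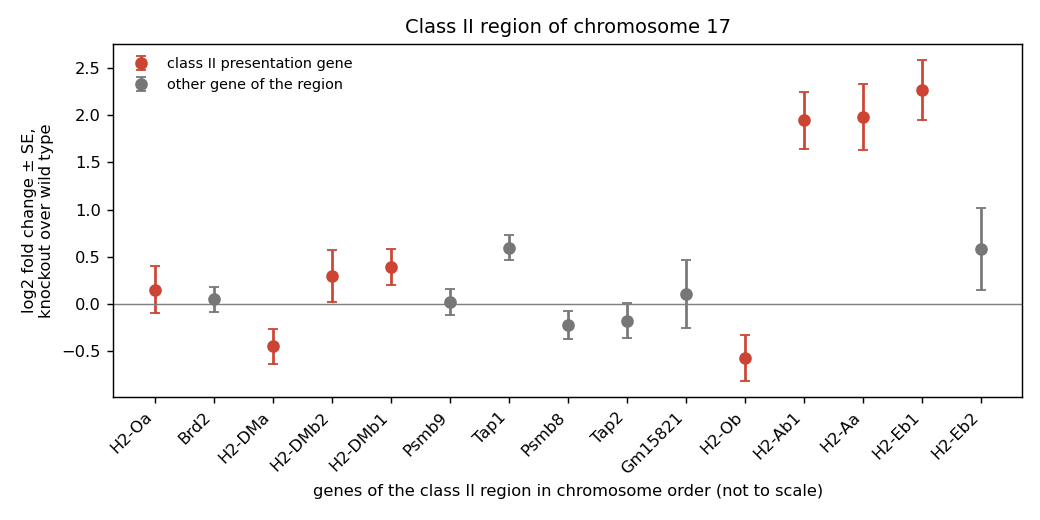
Log2 fold change with SE (bars), knockout over wild type, for the 15 genes measured between H2-Oa and H2-Eb2 on chromosome 17, in chromosome order and not to scale; class II presentation genes are red and other genes grey. H2-Ab1, H2-Aa and H2-Eb1 stand at 1.94, 1.98 and 2.27, while the other 12 genes lie between -0.57 and 0.59.

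Genes that control class II transcription were read from a list of 21, of which 1 rose and 0 fell (median log2 fold change -0.06). Beside this list and those that follow, 1.58% of all genes were called higher and 0.839% lower. The riser, Zbtb46, a transcription factor of conventional dendritic cells, went from 8.55 and 12.9 to 27.4 and 26.3 CPM (log2 fold change 1.27 ± 0.25 SE, limma adjusted p = 0.0448; 0.0613 by edgeR, which called 0 of the list). Nfya, a subunit of the Y box factor, and the kinase gene Jak2 had log2 fold changes of 0.78 and 0.50, and Spi1, a myeloid and B cell factor, one of -0.625; none of these 3 passed.

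In the list for processing and turnover of class II, 1 of 16 measured rows rose and 0 fell (median 0.09). Cst3, an inhibitor of cysteine proteases that dendritic cells make in quantity, went from 372 and 473 to 803 and 784 CPM (log2 fold change 0.92 ± 0.16 SE, limma adjusted p = 0.0323). The protease gene Ctsl and Cd83, which slows the removal of class II from the surface, were not called, at log2 fold changes of 0.90 and 1.48 (adjusted p = 0.0531 and 0.0609). Sppl2a, which cleaves the remnant of the invariant chain, and the ubiquitin ligase gene Marchf8 had log2 fold changes of 0.48 and 0.55, also below the threshold.

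Of 6 costimulation genes, Cd86, a ligand for T cell activation, rose from 5.15 and 7.89 to 23.6 and 22.8 CPM (log2 fold change 1.71 ± 0.27 SE, limma adjusted p = 0.0229), and 0 fell. Cd40 and Cd80 had log2 fold changes of 1.28 and 0.20, and the inhibitory ligand genes Pdcd1lg2 and Cd274 had values of -0.23 and -0.21; none of these 4 passed. Of 17 class I presentation genes 0 were called by limma and 0 by edgeR. At an unadjusted limma p under 0.05 there were 6 of 17, against 20.8% of all genes. The median log2 fold change of the 17 was 0.14. The smallest p-values there were those of Nlrc5, the class I transactivator (log2 fold change 0.72, adjusted p = 0.0600), Tap1, Erap1 (0.35) and H2-K1 (0.34).

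Markers of cells that carry class II moved in both directions. Of 19 dendritic cell markers 3 rose and 4 fell. Xcr1, a chemokine receptor of the cDC1 type of dendritic cell, rose from 5.60 and 11.1 to 63.0 and 77.3 CPM (log2 fold change 2.99 ± 0.30 SE, limma adjusted p = 0.00879). Cadm1, an adhesion molecule also marking cDC1, rose from 5.55 and 8.96 to 42.9 and 45.1 CPM (adjusted p = 0.00756), and Zbtb46 is the third. The cDC1 markers Itgae, Clec9a and Batf3 were not called, at log2 fold changes of 1.57, 1.41 and 1.53 (adjusted p = 0.0654, 0.0807 and 0.101).

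The 4 dendritic cell markers that fell are known from other dendritic cells. Siglech and Ly6d, found on plasmacytoid dendritic cells and their precursors, fell with log2 fold changes of -2.93 and -1.85 (limma adjusted p = 0.0376 and 0.0101), and edgeR did not call Siglech (adjusted p = 0.0811). Clec10a, a lectin of cDC2 cells and macrophages, fell from 27.1 and 29.5 to 6.59 and 3.98 CPM, and Cd209a fell to 3 reads in each knockout library from 55 and 79 in wild-type libraries. Ccr9, a homing receptor of plasmacytoid dendritic cells, had a log2 fold change of -0.87 and did not pass. Summed over the 19 markers the level was 857 and 867 CPM in wild-type and 698 and 663 CPM in knockout replicates. Flt3, a cytokine receptor gene that is also in the stem and progenitor list, was at 398 and 207 CPM in wild-type and at 155 and 101 CPM in knockout replicates. Without Flt3 the sum was 459.6 and 659.8 CPM in wild-type and 543 and 562 CPM in knockout replicates, so the groups overlapped. This sum was added after the data were seen. Bst2 was highest among the markers left in it, at 148 and 166 CPM in wild-type and at 139 and 129 CPM in knockout replicates.

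Of 12 monocyte and macrophage markers, Cx3cr1 and Csf1r fell (log2 fold changes -2.29 and -1.61, limma adjusted p = 0.00879 and 0.0404) and 0 rose; edgeR called Cx3cr1 alone (adjusted p = 0.0545 for Csf1r). F13a1 had a log2 fold change of -2.66, Ccr2 of -0.83, Fcgr1 of 1.53 and Mrc1 of 2.003, and these did not pass. The tissue macrophage gene C1qa was at 1.30 and 15.5 CPM in wild-type and at 54.1 and 15.5 CPM in knockout replicates, so wild-type replicate 2 and knockout replicate 2 were level. The summed level of this list was 622 and 1566 CPM in wild-type and 653 and 485 CPM in knockout replicates. Ly6c2 and Lyz2 were its highest genes in every library and weigh most in the sum. Ly6c2 was at 204 and 636 CPM in wild-type and at 229 and 225 CPM in knockout replicates. Lyz2 was at 161 and 384 CPM in wild-type and at 116 and 82.6 CPM in knockout replicates.

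Of 11 measured B cell markers 0 passed by limma and 0 by edgeR, and the median log2 fold change was -1.12. At an unadjusted limma p under 0.05 there was 1 of 11, the kinase gene Blk, against 20.8% of all genes. Their summed level was 258 and 709 CPM in wild-type and 87.5 and 438 CPM in knockout replicates, higher in the replicates numbered 2 of both groups. Blk, Cd79b, Ms4a1 and Cr2 had log2 fold changes of -2.04, -0.88, -1.10 and -0.29. Of 11 stem and progenitor markers Cd48 fell, from 116 and 95.0 to 60.3 and 60.9 CPM (limma adjusted p = 0.0453, 0.0535 by edgeR), and 0 rose. Ly6a, Cd34 and Kit had log2 fold changes of 0.52, -1.23 and -0.27 and were not called. Their sum was 1889 and 1101 CPM in wild-type and 1096 and 734 CPM in knockout replicates. No marker in these 4 lists was at 0 reads in any library. The part of these cell types in the class II result was not tested, and in bulk RNA fewer cells of a type and less RNA per cell cannot be told apart.

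**Figure D4:**
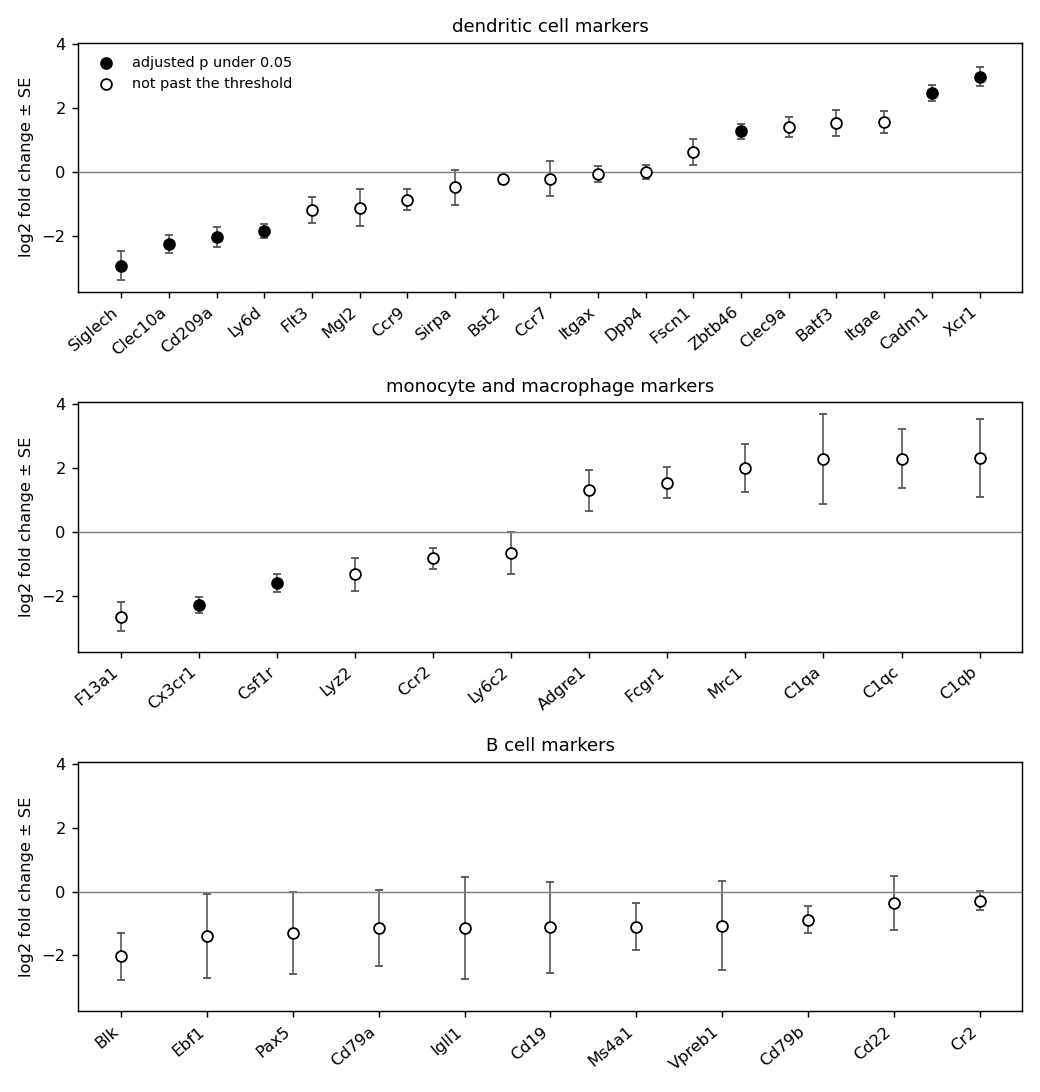
Log2 fold change with SE (bars), knockout over wild type, of 19 dendritic cell, 12 monocyte and macrophage and 11 B cell markers, ordered by value in each panel; filled circles had a limma adjusted p under 0.05. Xcr1 and Cadm1 are highest among dendritic cell markers at 2.99 and 2.48, Siglech is lowest at -2.93, and all 11 B cell markers have values below 0 without passing the test.

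Set against single markers, Cd74 had 49.3 and 51.2 times the CPM of Xcr1 in wild-type and 20.4 and 18.4 times in knockout replicates. Against Cd79a it had 5.77 and 4.14 times the CPM in wild-type and 81.3 and 17.5 times in knockout replicates. Against C1qa the ratios were 212 and 36.7 in wild-type and 23.7 and 91.7 in knockout replicates. The ratio to Xcr1 was lower, and that to Cd79a higher, in both knockout libraries than in both wild-type libraries, while the ratio to C1qa overlapped between the groups.

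The genes whose pattern over the 4 libraries was most like that of the chains were sought among the 13785 other genes whose mean over the libraries reached 1 CPM. Likeness was the Euclidean distance between log2(CPM + 1) values centred over the libraries and the mean of H2-Aa, H2-Ab1, H2-Eb1 and Cd74. The nearest 8 were Irf7, Shtn1, Plbd1, Phf11a, Adam8, Qpct, Pianp and Mthfd2, at distances of 0.103 to 0.255. Irf7, a transcription factor of the interferon response, stood at 13.6 and 28.2 CPM in wild-type and at 74.6 and 87.4 CPM in knockout replicates (limma adjusted p = 0.0528). Mthfd2, a mitochondrial folate enzyme, stood at 42.6 and 66.9 and at 195 and 212 CPM (adjusted p = 0.0101).

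Of the class II genes themselves, Ciita was at a distance of 0.462, and the loading genes were farther, from 1.67 for H2-DMb1 to 2.83 for H2-Ob. With 4 libraries, and a pattern set mainly by the groups and by the gap between the wild-type libraries, this ranking is a description only.

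**Figure D5:**
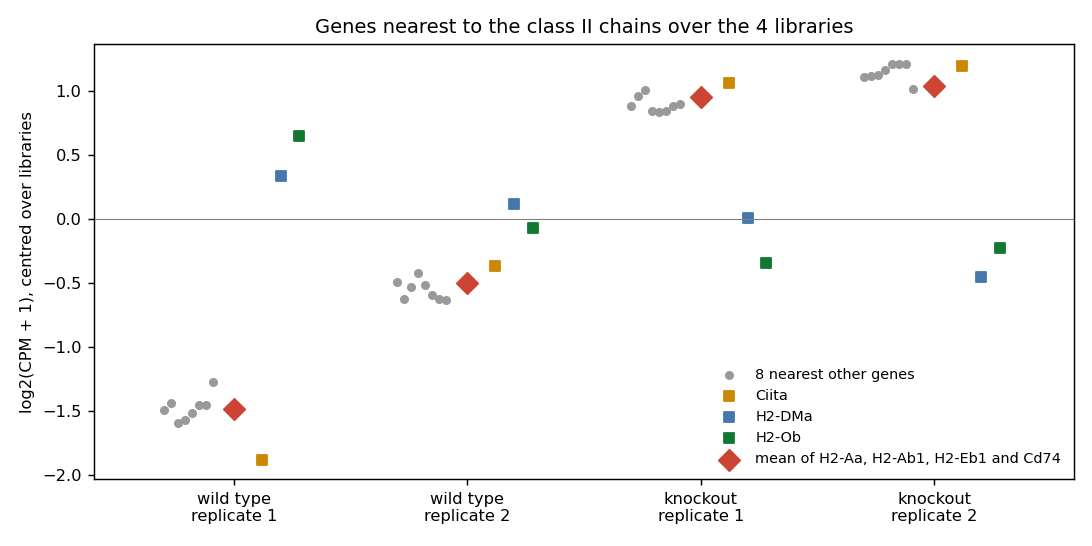
Log2(CPM + 1) centred over the 4 libraries for the mean of H2-Aa, H2-Ab1, H2-Eb1 and Cd74 (diamonds), for the 8 nearest other genes (grey points) and for Ciita, H2-DMa and H2-Ob (squares). Ciita lies near the diamonds in 3 libraries and lower in wild-type replicate 1, while H2-DMa and H2-Ob are highest in wild-type replicate 1, where the diamonds are lowest.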

How the data were processed

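The deposited table holds, per the file headers, CPM per gene for 2 wild-type and 2 knockout libraries. STAR 2.7.10a, featureCounts 2.0.1 and GRCm38.p6 are named in the submitters' processing notes; annotation and strand settings are not given in the sources used here. The deposited signal columns sum to 974603 to 1024746, so the authors scaled CPM by other library sizes than the totals of this table. Divided by its smallest value, each column gave whole reads for 100% of values within 0.01. The deposited table also holds the authors' log2 fold change, p-values and FDR, and a likelihood ratio that the authors give as a score per gene. Deposited DAVID tables give fold enrichment, a ratio.

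The test was limma 3.58.1 (R 4.3.3) on log2(CPM + 1), with trend and robust moderation, no replicate block, two-sided, Benjamini-Hochberg adjusted over 15255 genes. The pseudocount of 1 CPM shortens the log2 fold change of low genes. The plan named edgeR for counts. The deposited values were CPM, so limma was the test, and the call of H2-Ab1 depends on this choice. EdgeR 4.0.16 (287 genes called, against 369 by limma), DESeq2 1.42.0 and limma-voom ran on recovered reads. Other alternatives were median-of-ratios scaling, a filter (1 CPM in both libraries of a group, mean of 20 reads), a pseudocount of 0.1 CPM, the replicate number as a block, and each library left out. Positions and exon lengths are from GENCODE M21 (15226 of 15255 identifiers matched). Genes with few reads are not in the table, and all 10 class II genes passed whatever filter was used.

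Named are the 10 genes, Afg3l2, every called gene of each list with up to 4 others of smallest p, and the 8 genes nearest in pattern, except 1 gene that is not reported here; Xist, Cd79a, C1qa, Psmb8, Psmb9 and Brd2 were added after their values were seen, as were the genes named for their level or ratio. The 10 genes and the lists were chosen with earlier results of these data known.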

Additional observations from a re-analysis of the deposited data

How the results depend on the processing

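Against 2 of the 10 class II genes called by limma, edgeR and limma-voom each called 1 (H2-Eb1) and DESeq2 called 5. With other scaling, the stricter filter or a pseudocount of 0.1 CPM the number was 2. Leaving out a library gave 0 to 6 of the 10 genes. Over all genes limma called 369, DESeq2 1221, and the fits without a library 0 to 1068; for the fit with 0, without knockout replicate 2, 1209 genes had an unadjusted p under 0.05. Under a replicate block the numbers were 1779 genes by limma and 1789 by edgeR. Of the 10, limma with the replicate block called 3, H2-Aa and H2-Eb1 higher and H2-DMa lower (adjusted p = 0.0374, 0.0231 and 0.0487), and not H2-Ab1 (0.0506); edgeR with the block called H2-Eb1 higher and H2-DMa lower. Libraries of the same number deviated from their group means with a correlation across 13795 genes of 0.286. The deposited data carry the word paired in their name, but neither the name nor the labels say what a number shares. No log2 fold change of the 10 genes or Afg3l2 turned its sign under any alternative. Over the alternatives with all libraries, the main fit included, the adjusted p ranged from 2.12e-12 to 0.0468 for H2-Eb1, 1.47e-09 to 0.0659 for H2-Ab1, 2.13e-08 to 0.0776 for H2-Aa, 1.18e-06 to 0.106 for Cd74 and 8.95e-05 to 0.178 for Ciita, the lowest each time by DESeq2. Dendritic cell markers called numbered 7, and 4 to 11 by the other fits without a block, 10 with a replicate block and 0 to 11 with a library left out. For monocyte and macrophage markers these numbers were 2, 1 to 5, 2 and 0 to 6, for B cell markers 0, 0, 3 to 4 and 0 to 2, for T cell and innate lymphoid markers 0, 0, 1 and 0 to 1, for stem and progenitor markers 1, 0 to 2, 6 and 0 to 2. For regulators of class II they were 1, 0 to 3, 4 and 0 to 4, for processing genes 1, 1 to 4, 5 and 0 to 4, for class I genes 0, 0 to 2, 2 and 0 to 1, and for costimulation genes 1, 1, 2 and 0 to 2. With 2 libraries a group, the gap between the wild-type libraries, from 1.89 times for H2-Ab1 to 3.19 times for Ciita, limits the precision.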

Other observations

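The authors' own enrichment tables hold class II terms. In the authors' deposited table for genes higher with a log2 fold change over 1, the term MHC class II protein complex holds 4 genes, Cd74, H2-Eb1, H2-Aa and H2-Ab1, with a fold enrichment of 11.4 and an FDR of 0.0754. In the authors' deposited table for the wider list, the same term holds the same 4 genes. Its fold enrichment there was 5.32 and its FDR 0.524. The KEGG pathway of antigen processing and presentation, which also takes in class I genes such as Tap1 and H2-Q7, holds 12 genes of the wider list. That pathway had a fold enrichment of 2.55 and an FDR of 0.189.

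Cd8a, a T cell coreceptor that some dendritic cells of the mouse also carry, was at 2.60 and 9.61 CPM in wild-type and at 12.5 and 24.5 CPM in knockout replicates, with a log2 fold change of 1.58 ± 0.60 (SE) that did not pass (limma adjusted p = 0.230). Of the 9 measured T cell and innate lymphoid markers 0 passed by limma and 0 by edgeR. Cd3e, a subunit of the T cell receptor complex, was at 0.792 and 3.56 CPM in wild-type and at 2.67 and 5.37 CPM in knockout replicates (adjusted p = 0.439). Nkg7 and Cd4 had log2 fold changes of -0.77 and -0.37 (limma adjusted p = 0.362 and 0.541). With the replicate number as a block, or without wild-type replicate 2, 1 of the 9 was called.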
